A study of Mus musculus with 2 samples.

Results

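The genes described here are 31 of glucose breakdown and the response to low oxygen, out of 27998 genes listed in 2 single-cell libraries of the mouse abdominal aorta. They were chosen by function: 2 glucose transporters, 9 genes of the steps from glucose to triose phosphates, 7 of the steps from there to pyruvate, 5 of lactate and the fate of pyruvate, 3 of oxygen sensing, and 5 that are known to be induced by hypoxia. All 31 were found in the count tables. The mice were wild-type C57BL/6J and received Lactobacillus casei cell wall extract (LCWE) or phosphate-buffered saline (PBS) into the peritoneum. LCWE is a bacterial preparation that causes a vasculitis resembling Kawasaki disease, a childhood inflammation of arteries. The stretch of aorta between the left renal artery and the bifurcation was collected 2 weeks later. The LCWE library came from 1 pool of 7 aortas and the PBS library from 1 pool of 9. No other genotype or agent is named in the labels, and the age and sex of the mice are not given there. With 1 pooled library per group there is no replicate, so no test was possible, and every interval given in brackets is a 95% interval that covers counting error only.

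Glycolysis turns glucose into pyruvate in the cytosol and yields ATP without oxygen, and pyruvate is then oxidised in mitochondria or reduced to lactate and exported. Hexokinase, phosphofructokinase and pyruvate kinase catalyse its nearly irreversible steps. When oxygen is scarce, prolyl hydroxylases (Egln1, Egln3) no longer mark the transcription factor subunit HIF-1α (Hif1a) for destruction, and HIF-1 raises transcription of most glycolytic genes and of genes such as Bnip3, Ndrg1 and Adm. Activated macrophages, neutrophils and proliferating T cells are known for high glycolysis, and HIF-1α can also be raised by inflammatory signals. HIF-1α is controlled mainly at the level of the protein, which these data do not measure.

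HIF-1 binds short sites with the core CGTG, read here as ACGTG or GCGTG on either strand (CACGT or CACGC on the printed strand). The 250 bases before each RefSeq transcription start of the GRCm38.p6 build were searched, which was decided after expression values had been seen. Of the 29 members with an entry, 26 (89.7%) held at least 1 match, against 41.5% of all 27025 genes in the same table. By window, 34 of 42 member windows (81.0%) and 38.6% of all 32851 windows held a match, and 23.8% and 6.58% held at least 3. A palindrome CACGTG counts as 2 matches, because both strands read ACGTG. Ndrg1 and Slc2a3 had no entry. The windows of 4 members on which the results turn are printed 5′ to 3′ on the gene's own strand, with matches in capitals: Hif1a (chr12:73907617-73907866, plus strand, 3 matches), the lactate transporter Slc16a1 (chr3:104638414-104638663, plus strand, 4 matches), hexokinase 2 (chr6:82774455-82774704, minus strand, 2 matches) and Ldha (chr7:46845554-46845803, plus strand, 5 matches). Ldha has another window, chr7:46846832-46847081, with 1 match, which is not printed. The Hif1a and Ldha windows lie inside the genes as GENCODE vM21 annotates them, in introns of transcripts that start further upstream, and none of the 4 overlaps an annotated exon.
Hif1a: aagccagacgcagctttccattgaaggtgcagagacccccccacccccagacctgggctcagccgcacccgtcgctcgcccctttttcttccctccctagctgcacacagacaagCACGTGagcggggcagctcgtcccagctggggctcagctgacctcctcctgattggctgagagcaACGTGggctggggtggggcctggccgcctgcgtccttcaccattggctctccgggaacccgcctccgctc
Slc16a1: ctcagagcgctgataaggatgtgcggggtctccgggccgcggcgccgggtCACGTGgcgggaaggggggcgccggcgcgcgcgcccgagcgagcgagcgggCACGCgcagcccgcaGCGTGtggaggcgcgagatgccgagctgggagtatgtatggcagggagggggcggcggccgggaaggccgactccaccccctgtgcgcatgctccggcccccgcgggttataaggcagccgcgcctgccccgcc
Hk2: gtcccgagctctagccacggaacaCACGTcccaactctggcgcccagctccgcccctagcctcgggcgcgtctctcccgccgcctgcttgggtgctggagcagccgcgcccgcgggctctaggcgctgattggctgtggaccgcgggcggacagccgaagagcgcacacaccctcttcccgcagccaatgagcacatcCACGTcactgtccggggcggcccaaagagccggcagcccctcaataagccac
Ldha: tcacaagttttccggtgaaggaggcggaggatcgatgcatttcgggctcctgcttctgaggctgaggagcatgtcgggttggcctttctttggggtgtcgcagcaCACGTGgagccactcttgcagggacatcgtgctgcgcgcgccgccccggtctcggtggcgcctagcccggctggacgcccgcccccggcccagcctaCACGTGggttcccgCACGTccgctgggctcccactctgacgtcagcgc
A match is a description of the sequence. Binding of HIF-1 was not measured, and many of the members are known HIF-1 targets, so the share with a match is no independent finding.

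The LCWE library held 5091 cells and 42275754 UMIs (molecular tags, 1 for each transcript captured), and the PBS library 5386 cells and 62600808 UMIs. Cells keep the study's own names in 9 broad and 25 fine classes. Those names rest on clusters of the expression of all genes, so differences between classes are described and not tested. The PBS library was mostly smooth muscle (VSMC, 4141 cells) and the LCWE library mostly leukocytes, so 4 broad classes had at least 50 cells in both: fibroblasts (813 LCWE and 868 PBS cells), endothelial cells (327 and 246), smooth muscle cells (93 and 4141), and the lymphocytes named NK/ILC/T cell (2198 and 75). The class named VSMC_2, which the study calls transitional between smooth muscle and fibroblast, held 283 LCWE and 0 PBS cells. The class named Eosinophil went against its label: of 5 eosinophil markers Il5ra, Epx and Prg2 were at 0 and all 5 summed to 63.0 CPM (UMIs scaled to the total of the class, as counts per 1e6), while 5 neutrophil markers reached 50440 CPM, against 216000 CPM in the class named Neutrophil. It is called the cells labelled Eosinophil. In LCWE stromal cells, transcripts of other cells were more frequent than in PBS ones: 5 neutrophil markers were at 360 against 2.30 CPM in fibroblasts, 183 against 5.86 in endothelial cells and 259 against 2.58 in smooth muscle cells. The libraries shared 8 cell barcodes.

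All 31 members together made up 153751 UMIs, or 0.364% of the LCWE library, and 202688 UMIs, or 0.324%, of the PBS library. By class the share ranged widely. Among the 21 fine LCWE classes with at least 50 cells, the pooled share was highest in the macrophages named Mac1, at 0.642% (0.632 to 0.651). Neutrophils followed at 0.564% (0.544 to 0.584) and proliferating T cells at 0.542% (0.528 to 0.557). By the median of single cells the order differed, with 0.530% in neutrophils and 0.467% in proliferating T cells. The median was 0.453% in Mac1 and 0.452% in the monocytes named Mono1. Lowest as a part of all UMIs were naive CD8 T cells at 0.236% (0.228 to 0.245) and B cells at 0.239% (0.228 to 0.25), whose intervals overlap. Fibroblasts were at 0.273% (0.270 to 0.276). Ribosomal protein genes took 45.5% of the UMIs in naive CD8 T cells, 27.3% in B cells, 15.2% in fibroblasts and 6.8% in neutrophils. The order of classes, in shares and in CPM, therefore depends on this total. An order of classes without ribosomal protein genes was not computed. The transitional class, at 0.393% (0.388 to 0.398), was at the level of the 93 LCWE smooth muscle cells, 0.396% (0.383 to 0.409). The class named Mono/Mac/DC, of monocytes, macrophages and dendritic cells, was at 0.5% (0.496 to 0.505) and the granulocytes, the class named Myeloid cell, at 0.5% (0.488 to 0.513). Their medians over single cells were 0.402% and 0.4715%. These 2 classes had 18 and 6 PBS cells, with shares of 0.317% (0.294 to 0.341) and 0.456% (0.393 to 0.526), and were not compared between libraries.

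**Figure D1:**
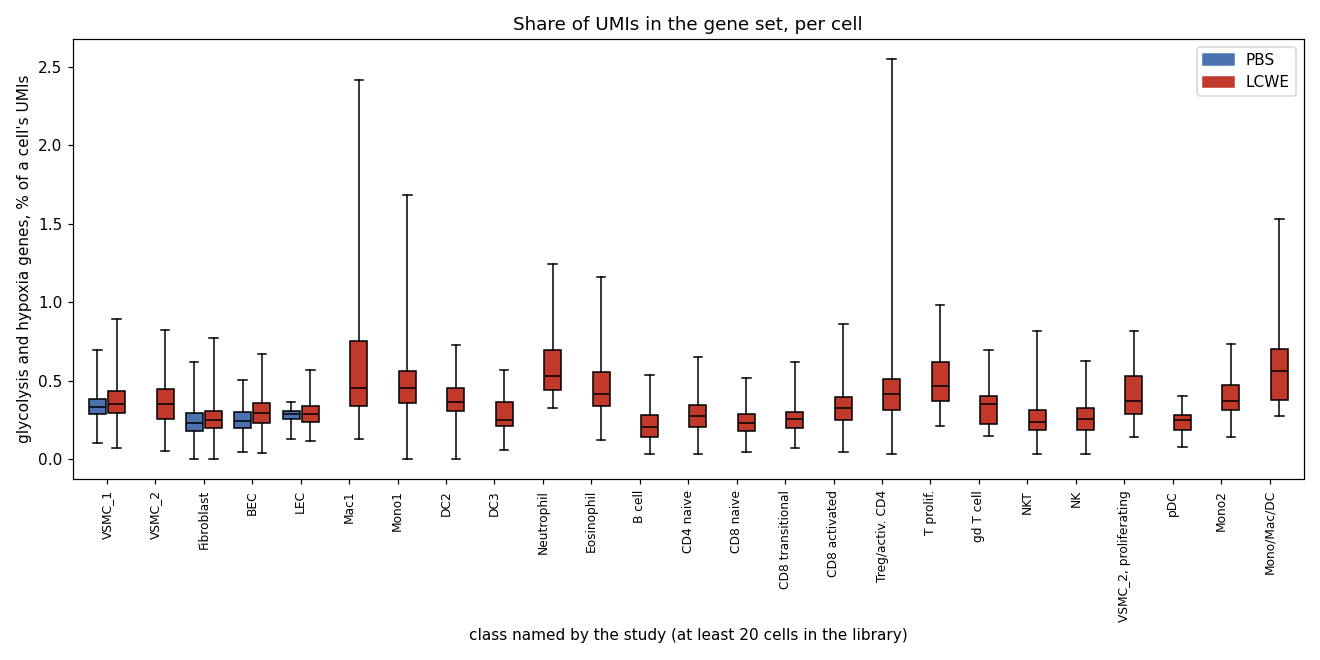
Share of each cell's UMIs in the 31 genes, in percent, by class and library, for classes with at least 20 cells in the library. Boxes span the quartiles with the median as a line, and whiskers reach the lowest and highest cell. Mac1 macrophages spread from 0.127% to 2.42%, with quartiles of 0.336% and 0.753%, while naive CD8 T cells lie between 0.0444% and 0.521%.

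Single cells differed most within the macrophages. In Mac1 the quartiles of the per-cell share were 0.336%, 0.453% and 0.753%, and 36 of 282 cells (12.8%) were over 1%. The corresponding count was 6 of 281 Mono1 monocytes and 1 of 294 regulatory and activated CD4 T cells. No cell passed 1% among LCWE fibroblasts, blood endothelial cells, the transitional class or proliferating T cells. Mac1 cells over 1% had a median of 11400 UMIs, against 8314 in the other Mac1 cells, and the share went with depth across cells (Spearman 0.345 over 282 cells). Of 1681 other genes commonly detected in Mac1 cells, those whose share followed the glycolysis and hypoxia share most closely were Capg, an actin-capping protein (Spearman 0.703), S100a10 (0.661), Anxa2 (0.656) and Lgals3, galectin-3 (0.655). Spp1, osteopontin, was among the first 10 at 0.588. Running against it were Tmem176b (-0.667), Tmem176a (-0.625), Cd74 (-0.536) and H2-Eb1 (-0.533), the last 2 being genes of class II antigen presentation. In the transitional class, Timp1, an inhibitor of matrix proteases, went with the share (0.655 over 283 cells) and Eln, elastin, against it (-0.670), with 0.358 for depth. These are descriptions across cells of 1 library, and the 7 classes looked at were picked after their shares had been seen.

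Glucose enters cells through the transporters Slc2a1 (GLUT1) and Slc2a3 (GLUT3). Slc2a3 (chromosome 6, 122727809 to 122801640, GRCm38) was concentrated in granulocytes, at 311 CPM (266 to 362) in neutrophils and 306 CPM (266 to 351) in the cells labelled Eosinophil, which overlap. The next class, activated CD8 T cells, was at 50.7 CPM (39.6 to 64.0), and lymphatic endothelial cells were lowest at 2.26 CPM. Slc2a1 was spread more evenly, from 109 CPM (83.4 to 141) in neutrophils and 90.9 CPM (80.3 to 102) in Mac1 macrophages to 13.8 CPM in fibroblasts and 12.5 CPM in γδ T cells. Slc2a3 made up 74.2% (70.2 to 78.0) of the UMIs of the pair in granulocytes, 38.5% (35.1 to 41.9) in LCWE NK/ILC/T cells and 10.7% (8.39 to 13.5) in Mono/Mac/DC cells. UMIs of 3′ libraries count transcript ends and do not scale with transcript length. Other differences between genes in capture and read assignment were not measured, so ranks and isoform shares between genes are of UMIs counted. Pgk1, Aldoa and Eno1 are further limited by near-identical copies, described below.

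**Figure D2:**
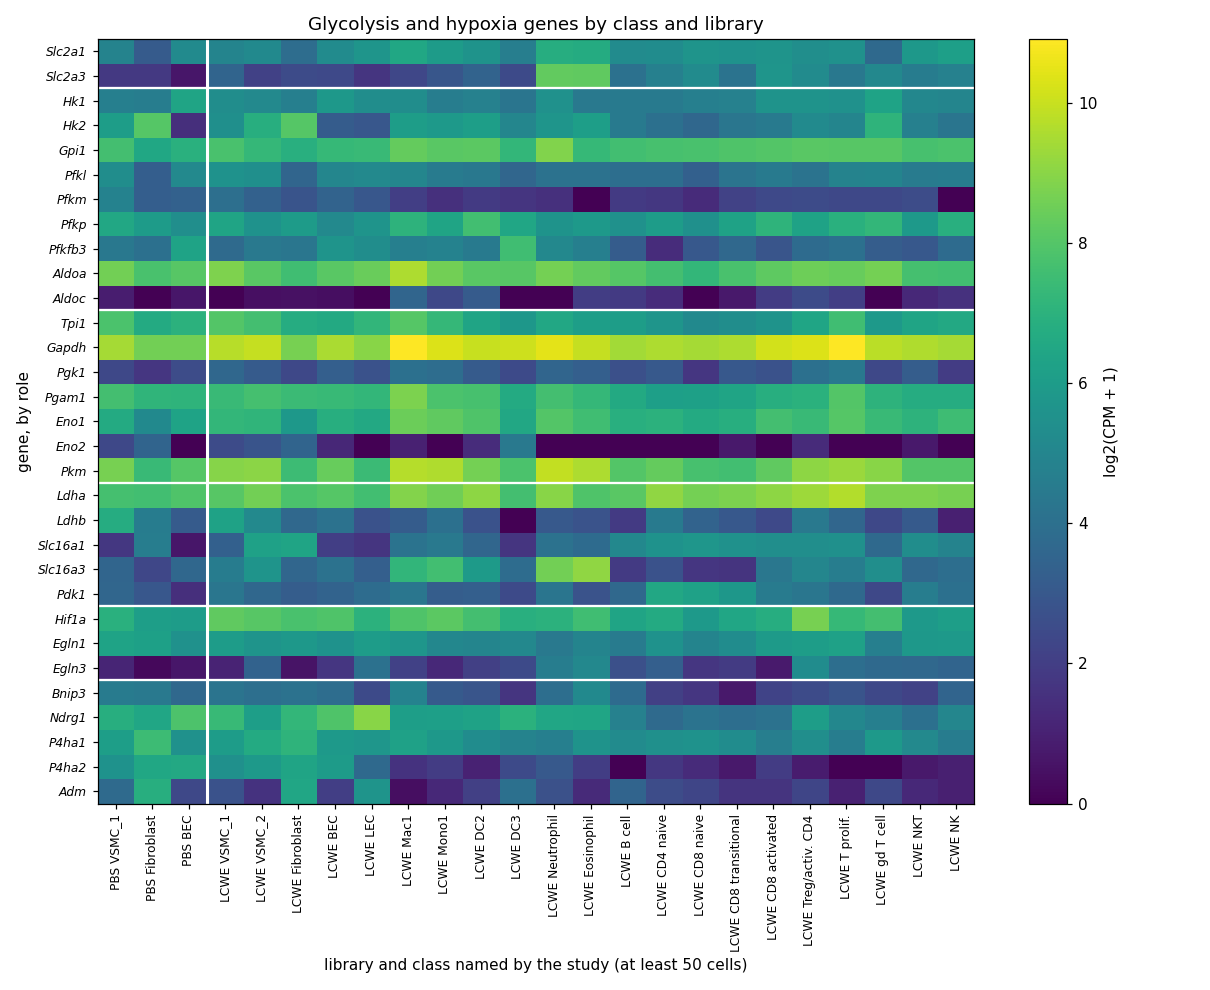
Level of each of the 31 genes, as log2(CPM + 1) by colour, in every fine class with at least 50 cells, with PBS classes to the left of the white vertical line and LCWE classes to the right. White horizontal lines separate the roles, from glucose transport at the top to hypoxia targets at the bottom, and the brightest cells are Gapdh in proliferating T cells (1937 CPM) and in Mac1 macrophages (1881 CPM).

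Of the genes from glucose to triose phosphates, Aldoa, the main aldolase, was the most abundant in Mac1 macrophages and smooth muscle cells, Gpi1 in neutrophils and Hk2 in fibroblasts. Aldoa stood at 769 CPM (737 to 801) in Mac1 macrophages, 443 CPM (400 to 489) in smooth muscle cells and 148 CPM in naive CD8 T cells. Gpi1, glucose-6-phosphate isomerase, was highest in neutrophils at 464 CPM (409 to 525) and lowest in fibroblasts at 116 CPM. Hk2 (chromosome 6, 82725025 to 82774454), the hexokinase isoform of insulin-sensitive and growing tissues, was highest in fibroblasts at 266 CPM (256 to 276). The transitional class followed at 115 CPM (106 to 124), beside γδ T cells at 137 CPM (94.3 to 192) in 54 cells, while blood and lymphatic endothelial cells were at 8.07 and 6.78 CPM. Hk1, the constitutive hexokinase, varied less, from 17.8 to 78.9 CPM. Pfkp, the platelet type of phosphofructokinase, was highest in DC2 dendritic cells at 195 CPM (176 to 216), and Pfkl and Pfkm, the liver and muscle types, were highest in smooth muscle cells, at 45.8 CPM (32.7 to 62.3) and 14.9 CPM (7.92 to 25.4), with intervals that overlap those of the next class. Pfkfb3, which makes the activator of phosphofructokinase, was at 189 CPM (151 to 234) in the 59 DC3 dendritic cells, above blood endothelial cells at 49.1 CPM (41.5 to 57.8). Aldoc reached 10.8 CPM in Mac1 and had 0 UMIs in 6 of the 21 classes, among them smooth muscle cells, where 0 UMIs allow up to 3.43 CPM.

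The genes from triose phosphates to pyruvate were led by Gapdh (chromosome 6, 125161715 to 125166467), at 1937 CPM (1851 to 2027) in proliferating T cells and 1881 CPM (1832 to 1931) in Mac1 macrophages, with overlapping intervals. Fibroblasts were lowest at 406 CPM. Pgam1, phosphoglycerate mutase, and Eno1, the general enolase, were highest in Mac1, at 441 CPM (417 to 465) and 349 CPM (328 to 371), and the intervals of Eno1 in Mac1 and Mono1 overlap. Pkm, pyruvate kinase, was at 952 CPM (873 to 1038) in neutrophils and 840 CPM (808 to 874) in Mac1. Tpi1 was at 260 CPM in Mac1 and 252 CPM in smooth muscle cells. Eno2, the neuronal enolase, was detected at 20.1 CPM (9.17 to 38.1) in DC3 and 10.6 CPM (8.69 to 12.8) in fibroblasts, and had 0 UMIs in neutrophils and NK cells, which allows up to 5.46 and 2.85 CPM there. Pgk1 was at 19.5 CPM or less in every class, far under its neighbours in the pathway. Near-identical copies of Pgk1, Aldoa and Eno1 are listed as separate genes, and reads that fit both can be lost or split, so the levels of these 3, and their rank beside other genes, are uncertain.

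Pyruvate is reduced to lactate by lactate dehydrogenase, whose Ldha subunit favours lactate formation and whose Ldhb subunit favours pyruvate. Ldha was highest in T cells, at 818 CPM (762 to 876) in proliferating and 638 CPM (596 to 683) in regulatory and activated CD4 T cells, and lowest in lymphatic endothelium at 196 CPM. Ldhb was highest in smooth muscle, at 76.7 CPM (59.4 to 97.4) in the LCWE and 109 CPM in the PBS library, and at 34.2 CPM (29.6 to 39.3) in the transitional class. Lactate leaves cells through the monocarboxylate transporters Slc16a3 (MCT4), known from highly glycolytic cells, and Slc16a1 (MCT1), which carries it in both directions. Slc16a3 (chromosome 11, 120948480 to 120960868) stood at 543 CPM (489 to 601) in the cells labelled Eosinophil and 390 CPM (339 to 446) in neutrophils. Monocytes of Mono1 followed at 195 CPM (177 to 215) and Mac1 at 147 CPM (133 to 161), and naive, transitional CD8 and B cells were under 3 CPM. Slc16a1 had another pattern, with 81.0 CPM (75.5 to 86.8) in fibroblasts, 75.4 CPM (68.4 to 82.8) in the transitional class and 51.9 CPM (40.2 to 65.9) in naive CD8 T cells. Pdk1, a kinase that blocks the entry of pyruvate into the citric acid cycle, was highest in naive T cells, at 91.8 CPM (75.7 to 110) in naive CD4 and 74.4 CPM (60.2 to 90.8) in naive CD8 T cells, against 22.2 CPM in activated CD8 T cells. Across the 21 classes, Pkm and Slc16a3 had the closest patterns of any pair of members (Spearman 0.890), a description over classes that share a library and its free RNA.

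**Figure D3:**
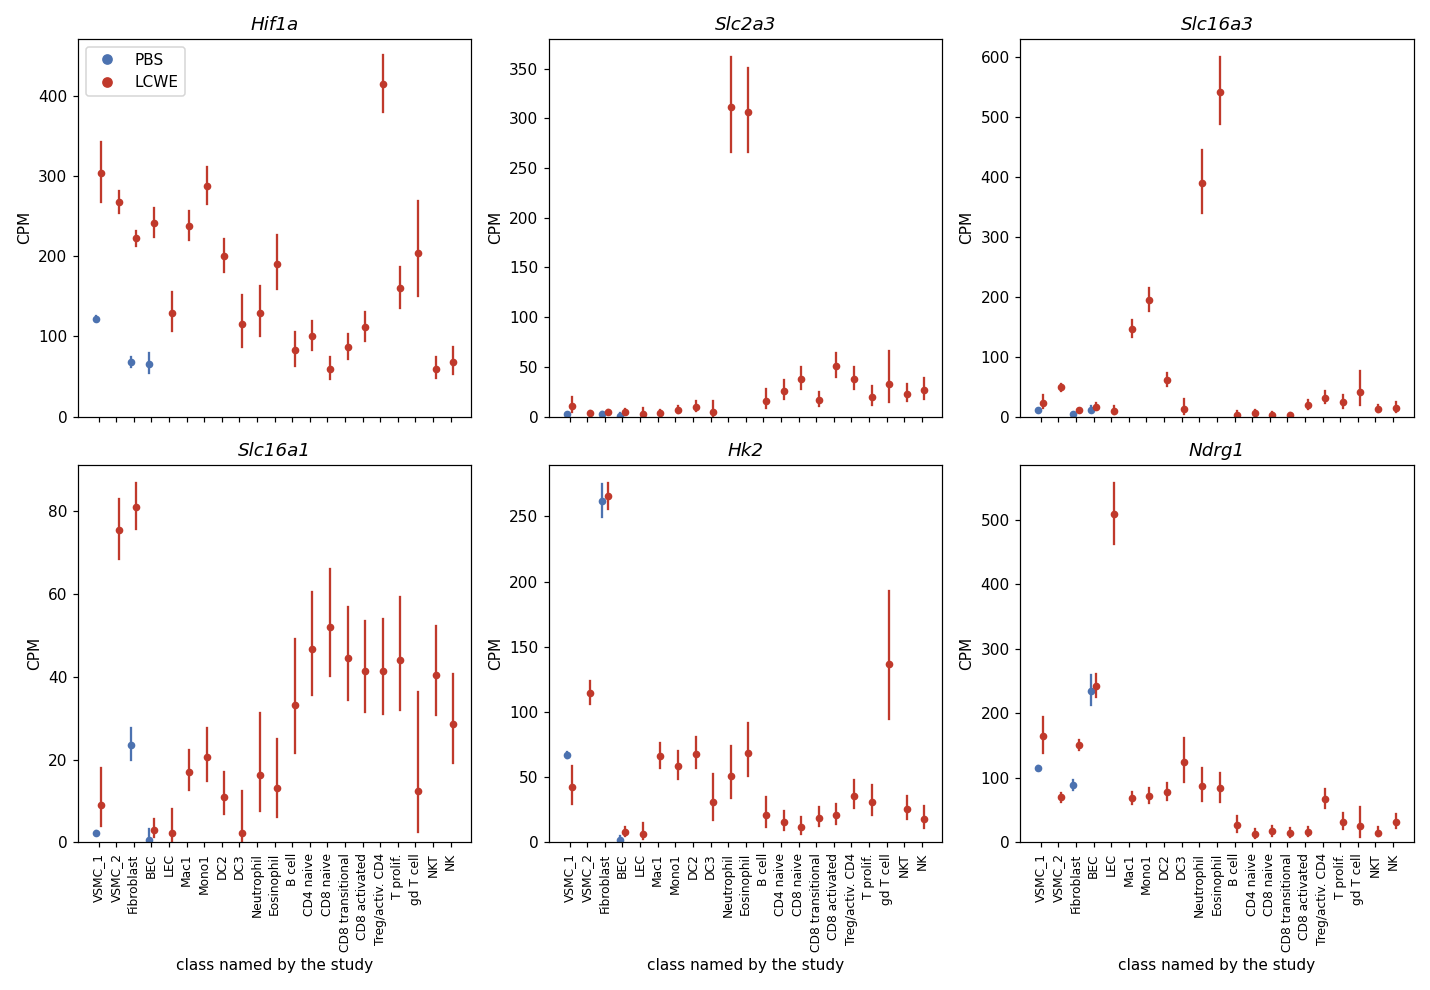
Levels in CPM of 6 of the genes in each fine class with at least 50 cells. Points are pooled levels, vertical lines 95% Poisson intervals, blue the PBS and red the LCWE library. Slc2a3 and Slc16a3 stand out in granulocytes, Hk2 and Slc16a1 in fibroblasts, and Ndrg1 in lymphatic endothelium, while Hif1a in fibroblasts is at 222 CPM (LCWE) and 67.7 CPM (PBS).

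Of the oxygen-sensing genes, Hif1a (chromosome 12, 73901375 to 73947530) was highest in regulatory and activated CD4 T cells, at 414 CPM (380.0 to 451), above LCWE smooth muscle cells at 303 CPM (268 to 342) and Mono1 monocytes at 287 CPM (265 to 311). Naive CD8 T, NKT and NK cells were lowest, at 59.7, 59.8 and 68.4 CPM. Egln3 was at 38.2 CPM (28.4 to 50.4) in the same regulatory and activated CD4 T cells and at 33.7 CPM (21.4 to 50.6) in the cells labelled Eosinophil, against 0.501 CPM in fibroblasts. Egln1, the main oxygen sensor, lay between 20.03 CPM in neutrophils and 75.8 CPM in proliferating T cells.

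The hypoxia targets were mostly stromal and endothelial. Ndrg1 (chromosome 15, 66929318 to 66969640), a stress-response gene, was at 508 CPM (462 to 558) in lymphatic and 242 CPM (225 to 261) in blood endothelial cells, against 12.9 CPM in naive CD4 T cells. The same order held in the PBS library, at 574 CPM (501 to 656) in 29 lymphatic and 235 CPM (213 to 260) in 217 blood endothelial cells. Adm, which encodes the vasodilator peptide adrenomedullin, was at 86.8 CPM (81.2 to 92.8) in fibroblasts and 49.7 CPM (36.1 to 66.7) in lymphatic endothelium, and at 0.338 CPM in Mac1. P4ha1 and P4ha2, subunits of the enzyme that hydroxylates collagen prolines, were highest in fibroblasts, at 135 CPM (128 to 142) and 81.6 CPM (76.1 to 87.4). Both were detected in blood endothelium too, at 58.2 and 62.9 CPM, whereas P4ha2 was at 0 in B cells, proliferating T cells and γδ T cells. Bnip3, a mitophagy receptor, was at 35.2 CPM (22.6 to 52.4) in the cells labelled Eosinophil and 27.7 CPM (22.0 to 34.4) in Mac1. The roles took different parts of the total by class. The 7 genes from triose phosphates to pyruvate made up 56.9% of the members' UMIs in Mono/Mac/DC cells and 34.2% in fibroblasts, while hypoxia targets made up 2.96% and 17.2%.

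Isoform use differed between classes in the hexokinase, phosphofructokinase, lactate dehydrogenase and transporter families. Fibroblast hexokinase UMIs were 91.3% (90.2 to 92.3) Hk2 in the LCWE and 91.6% (90.2 to 92.9) in the PBS library, with overlapping intervals. Endothelial cells were the opposite, with 13.2% (9.06 to 18.2) and 4% (1.48 to 8.5) Hk2. In smooth muscle Hk2 was 51.4% (39.3 to 63.4) of 72 LCWE UMIs and 72.5% (71.3 to 73.8) of 4961 PBS UMIs, and in Mono/Mac/DC cells 66.0% (62.5 to 69.4). The weighting of cells bears on this share: with every cell weighted alike, Hk2 was 85.6% in LCWE and 81.9% in PBS fibroblasts, 64.6% in PBS smooth muscle and 67.1% in the transitional class, which was at 76.9% (74.0 to 79.7) pooled. Among phosphofructokinases Pfkp was 78.7% (75.6 to 81.5) of UMIs in LCWE fibroblasts and between 72.3% (B cells) and 82.8% (Mono/Mac/DC cells) in the LCWE leukocyte classes. It was 47.4% (41.6 to 53.2) in LCWE endothelium and 47.1% (42.9 to 51.3) in the transitional class. Pfkm, the muscle type, was 17.3% (16.5 to 18.1) in PBS and 10.4% (5.66 to 17.1) in LCWE smooth muscle, and 1.72% (1.08 to 2.59) in Mono/Mac/DC cells.

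**Figure D4:**
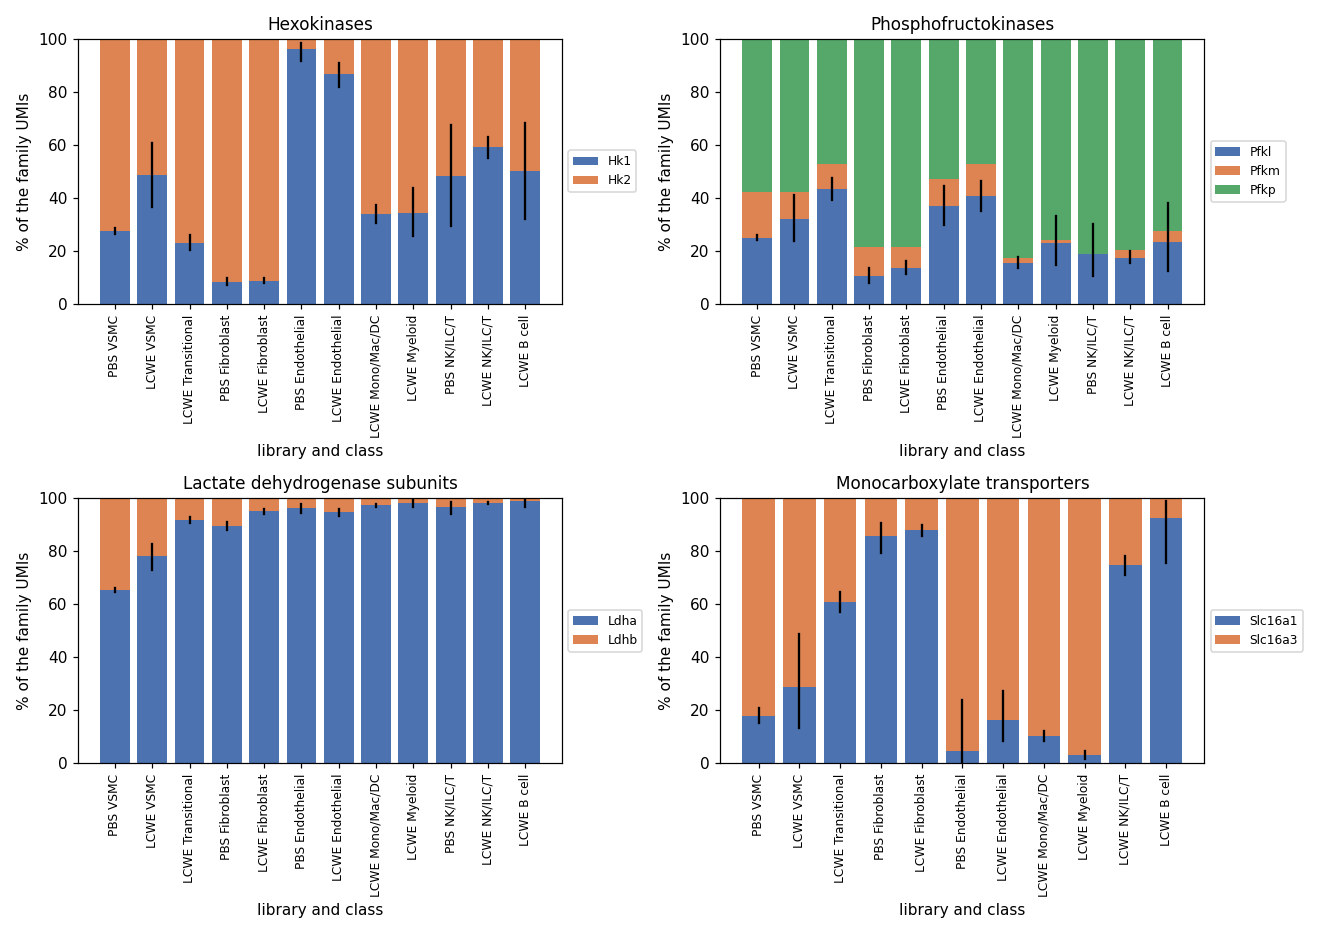
Composition of 4 isoform families, in percent of the family's UMIs, by broad class and library, for classes with at least 50 cells and 20 UMIs of the family. Black lines are 95% Clopper-Pearson intervals of the lowest segment. Fibroblasts stand out by 91.3% Hk2 and endothelial cells by 86.8% Hk1 in the LCWE library, and smooth muscle by an Ldhb share of 22.0% (LCWE) and 34.5% (PBS).

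Ldhb was 34.5% (33.8 to 35.2) of lactate dehydrogenase UMIs in PBS smooth muscle and 22.0% (17.4 to 27.0) in LCWE smooth muscle. The transitional class was at 8.18% (7.12 to 9.34), between smooth muscle and fibroblasts, which were at 4.91% (4.07 to 5.85) in the LCWE and 10.4% (8.85 to 12.2) in the PBS library. In all broad leukocyte classes Ldhb was under 4%. Of the transporter pair, Slc16a3 was 97.0% (95.3 to 98.2) in granulocytes, 89.9% (88.0 to 91.6) in Mono/Mac/DC cells and 83.8% (72.9 to 91.6) in LCWE endothelium. In LCWE fibroblasts it was 12.1% (10.0 to 14.4) and in NK/ILC/T cells 25.1% (21.6 to 28.9). Eno2 was 16.1% (13.4 to 19.2) of enolase UMIs in LCWE and 22.9% (18.1 to 28.2) in PBS fibroblasts, with Eno1 uncertain because of its copies. It was under 5% in the other broad classes with at least 20 UMIs of the pair. P4ha2, a pair added after seeing the data, was 47.4% (42.5 to 52.3) in LCWE and 63.4% (57.2 to 69.2) in PBS endothelium.

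The comparison of libraries asks how these genes differed between inflamed and control aorta within like classes. In 3 of the 4 compared classes the share of UMIs in the 31 genes was slightly higher in the LCWE library. It was 0.396% against 0.335% in smooth muscle cells, a ratio of 1.18 (1.14 to 1.22), 0.305% against 0.253% in endothelial cells, 1.21 (1.17 to 1.25), and 0.273% against 0.243% in fibroblasts, 1.12 (1.10 to 1.14). Within endothelium, blood endothelial cells were at 0.3097% (0.3035 to 0.3161) against 0.2441% (0.2366 to 0.2517). Lymphatic cells were at 0.2876% (0.2765 to 0.2989) against 0.2902% (0.2733 to 0.3077). LCWE fibroblasts were deeper than PBS ones (median 11494 against 6215 UMIs). Across LCWE fibroblasts the per-cell share went with depth (Spearman 0.309). The part of depth in the fibroblast ratio was not tested. Hif1a alone held 2218 of the 27273 LCWE and 412 of the 14804 PBS UMIs of the set in fibroblasts. In endothelial cells it held 831 of 11755 and 136 of 5172, and in smooth muscle cells 265 of 3458 and 6528 of 179274. The ratios of the set without Hif1a were not computed. In NK/ILC/T cells the share of the 31 genes was lower, at 0.330% against 0.404%, 0.817 (0.778 to 0.859). The fine classes within that class were in other proportions in the 2 libraries, and with the LCWE fine classes weighted as in the PBS library the ratio was 0.904. A difference of this size between 2 pools has no replicate to be set against.

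By gene, differences past 2-fold were few. Of 29 measured members (at least 20 UMIs over both libraries) in fibroblasts, 3 were at least 2-fold higher and 0 lower in the LCWE library, against 10.4% and 7.31% of all measured genes. In endothelial cells 4 of 27 were higher and 0 lower (10.2% and 5.66% of all), in smooth muscle cells 7 of 31 higher and 1 lower (20.5% and 3.6%), and in NK/ILC/T cells 1 of 29 was higher and 5 lower (3.28% and 16.4%). With at least 100 UMIs required, the counts in the same order of classes were 3 and 0 (6.44% and 5.07% of all genes), 1 and 0 (5.87% and 4.12%), 5 and 1 (7.43% and 4.21%), and 1 and 2 (4.77% and 3.21%). At 100 UMIs, 27, 18, 29 and 23 members were measured in the same order of classes. At the lower minimum the share of members past 2-fold was near that of all genes in each class. The median log2 ratio of the members was 0.11 in fibroblasts (0.04 over all genes), 0.20 in endothelial cells (0.09), 0.20 in smooth muscle cells (0.12) and -0.23 in NK/ILC/T cells (-0.19). Sums under 3 UMIs were raised to 3 for these counts, and 5 calls rest on that floor. They are Aldoc (0 LCWE UMIs) and Egln3 (1 LCWE UMI) in smooth muscle cells and Pfkm, Aldoc and Adm (0, 0 and 1 PBS UMIs) in NK/ILC/T cells, and no direction is read from them.

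**Figure D5:**
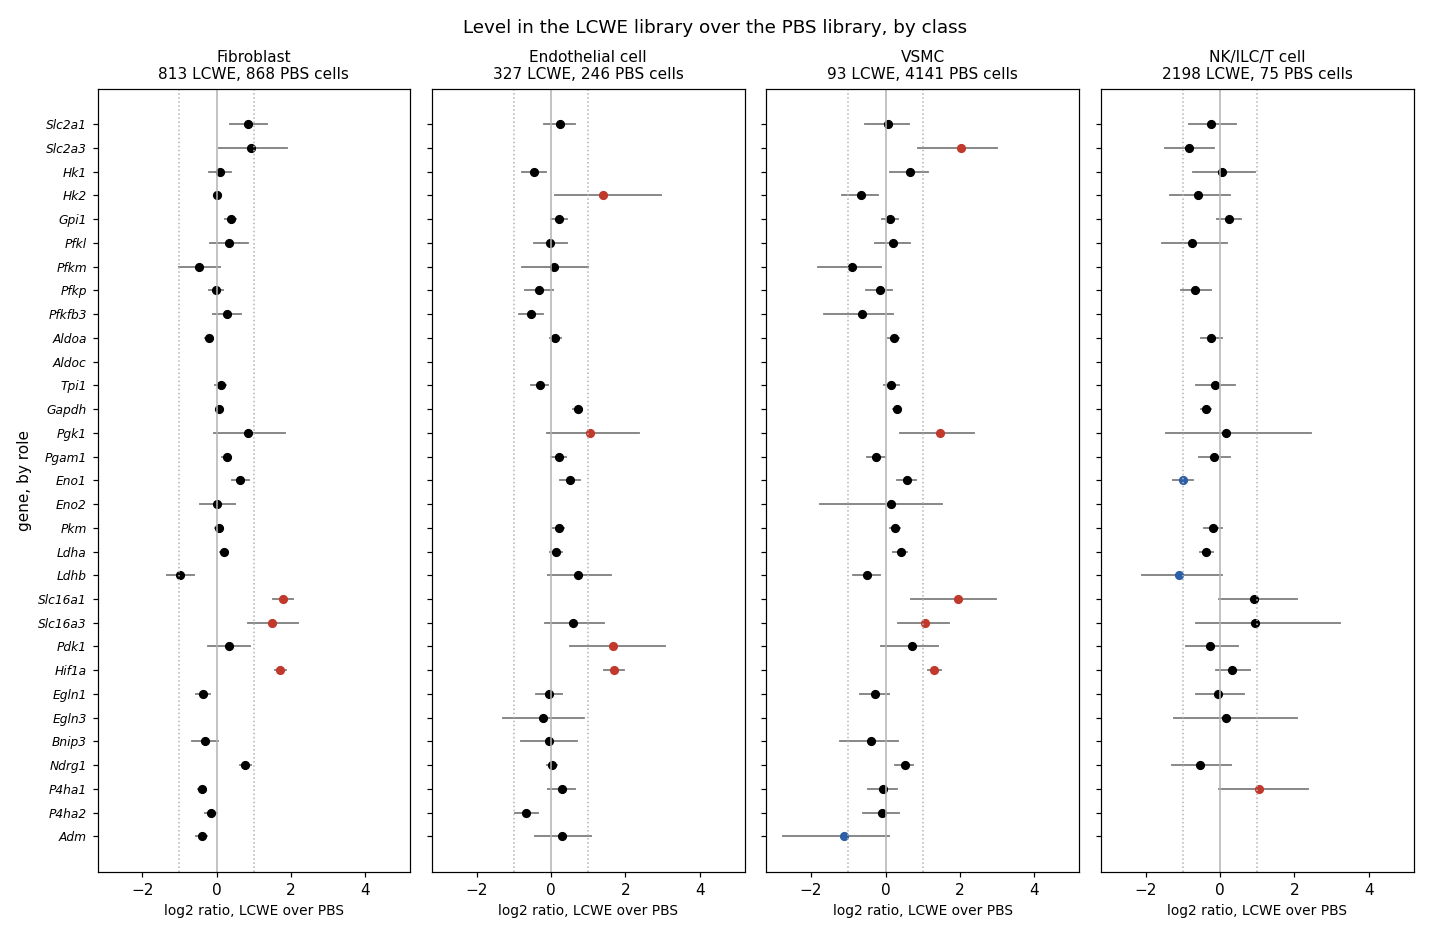
Ratio of LCWE over PBS on the log2 scale for each member, in the 4 classes compared (50 or more cells in each library). Points are counted ratios, red if at least 2-fold higher, blue if at least 2-fold lower and black otherwise, and horizontal lines are exact 95% intervals. Members with under 3 UMIs in a library, or under 20 in both together, are left out. Hif1a lies to the right of 2-fold (the dotted line at 1) in fibroblasts, endothelial cells and smooth muscle cells.

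Hif1a was the one member past 2-fold in all 3 stromal classes. In fibroblasts it was at 222 against 67.7 CPM (2218 and 412 UMIs), 3.28-fold (2.95 to 3.65) higher in the LCWE library. In endothelial cells it was at 215 against 66.4 CPM (831 and 136 UMIs), 3.24-fold (2.70 to 3.92) higher, and in smooth muscle cells at 303 against 122 CPM (265 and 6528 UMIs), 2.48-fold (2.19 to 2.81) higher. The interval of each class lies above 2. In NK/ILC/T cells it was at 134 against 106 CPM, 1.26-fold (0.932 to 1.75). Within endothelium, blood endothelial cells were at 241 CPM (224 to 260) in 239 LCWE cells and 65.4 CPM (53.7 to 78.9) in 217 PBS cells. Lymphatic cells were at 129 CPM (106 to 155) in 88 LCWE and 70.8 CPM (46.7 to 103) in 29 PBS cells. In fibroblasts the transcripts were not those of a few cells: 567 of 813 LCWE and 284 of 868 PBS cells had a UMI. LCWE fibroblasts were deeper (median 11494 against 6215 UMIs). With every cell thinned to 1600 UMIs, 27.2% (24.2 to 30.4) of LCWE and 8.64% (6.86 to 10.7) of PBS fibroblasts had a Hif1a UMI, against 69.7% and 32.7% unthinned.

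Hif1a was also compared in subsets of the cells. Among fibroblasts with no UMI of 5 neutrophil and 6 macrophage markers (356 LCWE and 792 PBS cells) Hif1a was at 211 against 70.2 CPM, and among such endothelial cells at 237 against 63.6 CPM. The gene Chl1, used to split the LCWE fibroblasts after their values had been seen, had a UMI in 481 of the 813. Cells with a Chl1 UMI had a median of 14431 UMIs and those without 7502.5. The split therefore also goes with depth, whose part in the levels by Chl1 was not tested. Hif1a was at 245 CPM (234 to 257) in the 481 LCWE fibroblasts with a Chl1 UMI and at 168 CPM (154 to 183) in the 332 without, which left a log2 ratio of 1.31 for the latter. In smooth muscle, leaving out cells over 10% mitochondrial UMIs (61 of 93 LCWE cells kept) gave a log2 ratio of 0.96, under 2-fold, in place of 1.31. Genes of the dissociation response were lower in the LCWE library, at 10320 against 18610 CPM in fibroblasts and 7411 against 11970 CPM in endothelial cells, and their part in these ratios was not tested. Egln1, which restrains HIF-1α, was at 55.8 against 72.3 CPM in fibroblasts, 0.771-fold (0.680 to 0.876), and between 0.820-fold and 0.970-fold in the other classes.

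Slc16a1, the bidirectional lactate transporter, had a ratio in fibroblasts whose interval overlaps that of Hif1a. It was at 81.0 against 23.5 CPM (809 and 143 UMIs), 3.45-fold (2.88 to 4.15) higher. It was detected in 362 of 813 LCWE and 115 of 868 PBS cells, and after thinning to 1600 UMIs in 12.9% (10.7 to 15.4) and 4.26% (3.02 to 5.83). In LCWE endothelial cells (median 9201 UMIs), where its level was low, 3.06% of cells had a UMI, or 0.306% after thinning. It lay mostly in the Chl1 cells, at 96.9 CPM (89.7 to 104) against 44.0 CPM (36.9 to 52.2) in LCWE fibroblasts without a Chl1 UMI, and without the Chl1 cells its log2 ratio was 0.91, under 2-fold. Among fibroblasts with no leukocyte marker UMI it was at 87.8 against 24.4 CPM. The transitional class, which the PBS library lacks, was at the level of LCWE fibroblasts, 75.4 CPM, whereas PBS smooth muscle was at 2.39 CPM.

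Slc16a3 (111 and 24 UMIs in fibroblasts) was at 11.1 against 3.94 CPM, 2.82-fold (1.80 to 4.58) higher. Of the 111 LCWE UMIs, 96 lay in the 457 fibroblasts with a neutrophil or macrophage marker UMI, at 15.8 CPM (12.8 to 19.3), and 15 in the 356 without, at 3.84 CPM (2.15 to 6.33), against 4.25 CPM (2.70 to 6.38) in PBS fibroblasts without one. The log2 ratio turned from 1.49 to -0.15 when such cells were left out. LCWE fibroblasts with a marker UMI were also deeper, with a median of 12560 against 9858 UMIs, and the part of leukocyte transcripts and of depth in the ratio was not tested. Slc2a3 was at 4.71 against 2.46 CPM, 1.91-fold (1.05 to 3.68), and at 3.07 CPM (1.59 to 5.36) against 2.22 CPM (1.15 to 3.87) in cells without such a marker UMI.

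The other members in fibroblasts were closer. Ndrg1 was at 151 against 88.4 CPM, 1.70-fold (1.54 to 1.88), Slc2a1 at 13.8 against 7.72 CPM, 1.79-fold (1.28 to 2.55), and Eno1 at 55.3 against 35.5 CPM, 1.56-fold (1.33 to 1.83). Slc2a1 was higher in LCWE fibroblasts without a Chl1 UMI, at 24.7 CPM (19.4 to 31), than in those with one, at 9.16 CPM (7.05 to 11.7). The former level rests on 74 UMIs in 41 of 332 cells. The log2 ratio of Slc2a1 was 1.68, past 2-fold, when the Chl1 cells were left out and 1.72 with every cell weighted alike. It was 0.54 when cells with a neutrophil or macrophage marker UMI were left out. Hk2, the most typical of this class, was at 266 and 262 CPM, 1.01-fold (0.952 to 1.08). Gapdh, the most abundant member, was at 406 and 390 CPM, 1.04-fold (0.989 to 1.09). On the lower side were Ldhb, at 11.7 against 23.0 CPM, 0.509-fold (0.395 to 0.656), Adm at 86.8 against 114 CPM, 0.759-fold (0.686 to 0.840), and P4ha1 at 135 against 177 CPM, 0.760-fold (0.701 to 0.824). Ldhb was at 9.02 CPM (6.93 to 11.5) in LCWE fibroblasts with a Chl1 UMI and 18.0 CPM (13.5 to 23.5) in those without. Without the Chl1 cells the log2 ratios of Ldhb and Adm were -0.35 and -0.03. None of the 5 hypoxia targets passed 2-fold in fibroblasts, where their ratios were 1.70 (Ndrg1), 0.903 (P4ha2), 0.804 (Bnip3), 0.760 (P4ha1) and 0.759 (Adm).

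In endothelial cells the levels of Hk2 (30 against 6 UMIs, 2.65-fold, 1.09 to 7.80), Pdk1 (42 against 7 UMIs, 3.18-fold, 1.42 to 8.40) and Pgk1 (31 against 8 UMIs, 2.06-fold, 0.924 to 5.18) passed 2-fold on under 50 UMIs each. Pgk1 was under 2-fold in 5 alternatives, such as other scaling factors (log2 ratio 0.97). Gapdh, the most abundant member in endothelial cells, was at 680 against 414 CPM (2622 and 848 UMIs), 1.64-fold (1.52 to 1.78). The difference lay in blood endothelial cells, at 731 CPM (701 to 763) against 390 CPM (361 to 421), while lymphatic cells were at 506 CPM (460.2 to 555) and 519 CPM (450 to 597). Without Gapdh the ratio of the whole set in endothelial cells was 1.12 in place of 1.21. Lower were P4ha2, at 51.3 against 81.1 CPM, 0.633-fold (0.512 to 0.782), Pfkfb3, a gene of sprouting endothelium, at 46.9 against 67.9 CPM, 0.691-fold (0.551 to 0.868), and Hk1 at 51.3 against 70.3 CPM, 0.730-fold (0.586 to 0.911). LCWE endothelium held more lymphatic cells (88 of 327) than PBS endothelium (29 of 246), and P4ha2 within blood endothelial cells was at 62.9 CPM (54.2 to 72.6) and 96.6 CPM (82.3 to 113). Ndrg1, the leading hypoxia target of endothelium, was alike, at 304 and 298 CPM, 1.02-fold (0.921 to 1.12).

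The 93 LCWE smooth muscle cells give few UMIs per gene. Apart from Hif1a, the calls were Slc2a3 (9 against 135 UMIs, 10.3 and 2.52 CPM, 4.08-fold, 1.83 to 7.98), Slc16a1 (8 against 128 UMIs, 9.15 and 2.39 CPM, 3.82-fold, 1.62 to 7.76), Pgk1 (10 against 221 UMIs, 11.4 and 4.13 CPM, 2.77-fold, 1.31 to 5.19) and Slc16a3 (20 against 586 UMIs, 22.9 and 11 CPM, 2.09-fold, 1.27 to 3.26). Of the 8 Slc16a1 UMIs, 5 came from 1 cell, and all 8, like 8 of the 9 Slc2a3 UMIs, lay in the 49 cells with a neutrophil or macrophage marker UMI. Without the 5% of cells with the most UMIs the log2 ratios of Slc16a1 and Slc16a3 were 0.76 and 0.77, under 2-fold. Adm was lower on 5 against 669 UMIs (0.457-fold, 0.148 to 1.07). Of the 7 genes of the steps from triose phosphates to pyruvate, Gapdh was at 871 against 707 CPM, 1.23-fold (1.14 to 1.32), Pkm at 496 against 415 CPM, 1.19-fold (1.08 to 1.31), and Eno1 at 149 against 100.3 CPM, 1.48-fold (1.24 to 1.77), while Pgam1 was lower, at 170 against 203 CPM, 0.839-fold (0.709 to 0.986). Tpi1, at 1.12-fold (0.971 to 1.27), and Eno2, on 4 LCWE UMIs, had intervals that include 1. Aldoa, of the earlier steps, was at 443 against 381 CPM, 1.16-fold (1.05 to 1.28), and Ldha at 272 against 206 CPM, 1.32-fold (1.16 to 1.5). Also lower were Pfkm, at 14.9 against 27.6 CPM, 0.539-fold (0.286 to 0.925), Ldhb, at 76.7 against 109 CPM, 0.706-fold (0.546 to 0.898), and Hk2, at 42.3 against 67.3 CPM, 0.629-fold (0.442 to 0.869). Smooth muscle markers were at 39100 against 46530 CPM in these cells.

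In NK/ILC/T cells Eno1 was at 158 against 317 CPM (1640 and 129 UMIs), 0.498-fold (0.416 to 0.600), a value just past the 2-fold line. Of the 129 PBS UMIs, 25 came from 1 of 75 cells, and 7 of 12 alternatives gave under 2-fold, down to a log2 ratio of -0.82. Gapdh was at 983 against 1282 CPM, 0.767-fold (0.703 to 0.840), Ldha at 519 against 672 CPM, 0.772-fold (0.684 to 0.876), and Slc2a3 at 30.1 against 54.1 CPM, 0.557-fold (0.361 to 0.902). Ldhb rests on 107 against 9 UMIs (0.465-fold, 0.236 to 1.05) and P4ha1 on 367 against 7 (2.05-fold, 0.986 to 5.14). Cycling markers were at 197 CPM in the LCWE and 376 CPM in the PBS cells of the class, and proliferating T cells were the lymphocytes with the highest share of the 31 genes. Their part in these ratios was not tested.

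Of 53 other genes of the same pathways, chosen from textbook roles, 41 were measured in fibroblasts, where 4 were at least 2-fold higher and 2 lower (10.4% and 7.31% of all measured genes). In endothelial cells it was 1 higher and 0 lower of 35 (10.2% and 5.66% of all), in smooth muscle cells 3 and 2 of 42 (20.5% and 3.6%), and in NK/ILC/T cells 2 and 3 of 36 (3.28% and 16.4%). Most of them were within 2-fold in each class, and the genes named below are past 2-fold with at least 50 UMIs in either library. Slc2a4 and Pgam2 in smooth muscle reach 50 UMIs only in the PBS library, where their levels are lower. Epas1, which encodes HIF-2α, was at 56.0 against 17.1 CPM in fibroblasts (559 and 104 UMIs), 3.28-fold (2.65 to 4.08) higher, beside Hif1a. Plod2, a collagen lysyl hydroxylase that HIF-1 can induce, was at 254 against 112 CPM (2540 and 680 UMIs), 2.28-fold (2.09 to 2.48) higher there. Pgls, of the pentose phosphate pathway, was at 151 against 73.3 CPM in endothelial cells, 2.06-fold (1.72 to 2.48). In smooth muscle Slc2a4, the insulin-responsive glucose transporter GLUT4, was at 45.8 against 10.9 CPM (40 and 583 UMIs in 23 and 489 cells), 4.20-fold (2.97 to 5.79). Pgam2, the muscle phosphoglycerate mutase, was at 33.2 against 1.55 CPM, 21.4-fold (13.5 to 33.0), on 29 UMIs in 13 of 93 LCWE cells and 83 UMIs in 57 of 4141 PBS cells. The pyruvate dehydrogenase kinases Pdk2 (3 against 677 UMIs, 0.271-fold, 0.0558 to 0.796) and Pdk3 (8 against 989 UMIs, 0.495-fold, 0.213 to 0.979) were lower. In NK/ILC/T cells Arnt, the partner of HIF-1α, and Ankrd37 were 2.29-fold (0.883 to 8.48) and 2.30-fold (0.773 to 11.2) higher on 4 and 3 PBS UMIs.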

How the data were processed

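Each pool of aortas gave 1 single-cell library, made with the 3′ kit of 10x Genomics per the labels' protocols. The authors deposited a matrix of unnormalised UMI counts, with a metadata table that gives each cell its library and class, and Cell Ranger 3.0.2 and mm10 are named in the submitters' processing notes. The authors' deposited metadata also hold the percent of mitochondrial UMIs of each cell, and all cells listed there are marked as neither dead nor doublet, so no further filter was applied. The joint matrix and the tables of the single libraries did not differ in any of 293335046 entries. Whether counting used strand is not given in the sources used here.

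For each class and library, the UMIs of a gene were pooled and divided by all UMIs of the class. Levels carry exact Poisson, shares Clopper-Pearson and ratios exact conditional binomial 95% intervals. A gene was measured with at least 20 UMIs over both libraries and called at a ratio of at least 2, with sums under 3 raised to 3. Libraries were compared within classes that held 50 or more cells in each. Python 3.11.15 with numpy 2.4.6, pandas 2.3.3, scipy 1.17.1 and matplotlib 3.10.9 was used, and edgeR 4.0.16 in R 4.3.3 for TMM factors as an alternative. The ratio code was tested on simulated data. All 31 members are named, and full values go to members with at least 50 UMIs in either library and a 2-fold ratio, and to leading members of each role. Members, lists and rules were chosen with earlier results of these data known. The motif search, the splits by Chl1 and by leukocyte marker UMIs, the P4ha1 and P4ha2 pair and the scan of single cells were added after seeing the values. Of the marker genes, Trbc2 was not matched.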

Additional observations from a re-analysis of the deposited data

Results flagged for a closer look

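For 8 members the LCWE over PBS ratio had a counting interval wholly above 1 in one class and wholly below 1 in another. This criterion was written after the ratios had been seen, the intervals cover counting error only, and the difference between classes was not tested. Slc2a3 was 1.91-fold in fibroblasts and 4.08-fold in smooth muscle cells, against 0.557-fold in NK/ILC/T cells. In LCWE smooth muscle 8 of its UMIs lay in cells with a neutrophil or macrophage marker UMI and 1 in the other cells. Among fibroblasts without such a marker UMI, Slc2a3 was at 3.07 CPM (1.59 to 5.36) against 2.22 CPM (1.15 to 3.87). Hk1 was 1.57-fold in smooth muscle cells and 0.730-fold in endothelial cells, while Hk2 ran the other way, at 0.629-fold and 2.65-fold. Aldoa was 1.16-fold in smooth muscle cells and 0.863-fold in fibroblasts. Gapdh was 1.64-fold in endothelial and 1.23-fold in smooth muscle cells, against 0.767-fold in NK/ILC/T cells. Pgam1 was 1.21-fold in fibroblasts and 0.839-fold in smooth muscle cells. Eno1 was 1.42-fold in endothelial cells, 1.56-fold in fibroblasts and 1.48-fold in smooth muscle cells, against 0.498-fold in NK/ILC/T cells. Ldha was 1.15-fold in fibroblasts and 1.32-fold in smooth muscle cells, against 0.772-fold in NK/ILC/T cells.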

How the results depend on the processing

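No paired analysis was possible because each group is 1 pooled library, and no replicate could be left out. Of the values of single genes under alternatives, 1273 kept their side of 2-fold, 31 lost and 21 gained the 2-fold call. Another 2, past 2-fold in the main setting, turned in direction. Slc16a3 in fibroblasts turned to a log2 ratio of -0.15 without cells that hold a neutrophil or macrophage marker UMI (chosen after seeing the data). Pfkm in NK/ILC/T cells, with 0 PBS UMIs, turned to 0.45 with 1 UMI added in place of the floor. Changes of sign were not counted for members within 2-fold, and some occurred, such as Gapdh in fibroblasts (log2 ratio from -0.18 to 0.15). The ratio of the whole set stayed above 1 in endothelial cells at 1.15 (TMM and median-of-ratios factors), 1.16 (cells weighted alike) and 1.12 (without Gapdh). In fibroblasts it was 1.10 (TMM), 1.2 (total without mitochondrial and ribosomal protein genes), 1.07 (cells weighted alike, or without Chl1 cells), 1.09 (without the 5% of cells with the most UMIs), 1.19 (sensing and hypoxia genes alone) and 1.05 (without marker cells). In smooth muscle cells it was 1.10 (median of ratios), 1.12 (cells weighted alike), 1.42 (sensing and hypoxia genes alone) and 1.11 (without marker cells). In NK/ILC/T cells it was 0.897 (median of ratios), 0.881 (total without mitochondrial and ribosomal protein genes), 0.864 (cells weighted alike) and 0.904 (fine classes weighted as in the PBS library), and it turned to 1.17 for sensing and hypoxia genes alone. The cause of these shifts was not tested. Median-of-ratios factors moved all genes of that class by 0.14 on the log2 scale. The sensing genes include Hif1a. The median log2 ratio of the measured hypoxia targets was -0.31 in fibroblasts and -0.11 in smooth muscle cells. It was 0.02 in endothelial cells and -0.71 in NK/ILC/T cells. The counts of members past 2-fold also moved. In endothelial cells 4 higher became 1 (at least 100 UMIs) or 2 (without marker cells). In fibroblasts 0 lower became 1 (TMM, or without marker cells), which is Ldhb. Its log2 ratio ran from -1.01 without marker cells to -0.35 without Chl1 cells. In NK/ILC/T cells 1 higher became 3 (median of ratios, or the reduced total) or 0 (1 UMI added), and 5 lower became 3 (median of ratios, or the reduced total) or 2 (1 UMI added, at least 100 UMIs, at least 3 UMIs in both libraries, or without marker cells). In smooth muscle cells 1 lower became 2 (cells weighted alike, or without marker cells) or 0 (1 UMI added). Hif1a ranged over the alternatives from 1.31 to 1.81 in fibroblasts, 1.58 to 1.90 in endothelial cells and 0.96 to 1.37 in smooth muscle cells (log2). Of the isoform shares under alternatives 266 stayed within their interval and 21 moved beyond it, most with cells weighted alike. Precision in NK/ILC/T cells is limited by 75 PBS cells and in smooth muscle by 93 LCWE cells, and every comparison by the lack of replicates.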

Other observations

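The transitional class and the 41 LCWE cells of the proliferating stromal class were not in any comparison, because the PBS library held 0 and 15 such cells. The glycolysis and hypoxia share of the proliferating stromal class was 0.430% (0.418 to 0.442) in the LCWE library and 0.282% (0.263 to 0.302) in the 15 PBS cells. Within the transitional class, cells with a higher share also had more of Timp1 (Spearman 0.655), the mitochondrial protein Tspo (0.545), the cytokine Mif (0.543) and Lcn2, lipocalin 2 (0.536). They had less of Eln (-0.670), Ccdc80 (-0.635), Fbln5 (-0.575), a protein of elastic fibres, and the smooth muscle gene Lmod1 (-0.550). Depth went with the share (0.358) and the mitochondrial percent against it (-0.386), and their part in these values was not tested.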
